A study of Bombyx mori with 2 samples.

Results

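The array carried 132 probes for silkworm small RNAs, named Bm- and a number, and 45 of them gave a usable reading in every spot of every hybridisation. Members were chosen by the authors' spot flags: a member was a Bm- probe whose 3 spots all had flag 0, the usable value, in both dye orientations of both stage pairs, which makes 12 flag values per probe. The other 87 probes had at least 1 flag of -50, the unusable value: 12 had exactly 1, 75 had 2 or more, and 9 of those 75 had all 12. The flags that chose the members come from the same spots as the signals described here. Of the 27 spots named negative control, 0 had flag 0 in any hybridisation, so a distance between the members and these controls is what the choice used and is given as a description.

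Small RNAs of 50 to 500 nt were measured in Bombyx mori, the domesticated silkworm, in the strain Dazao P50, which all stages shared. Animals were kept after hatching at 25 °C with 14 h of light, 10 h of dark and 70% relative humidity. In the first pair, RNA of diapaused eggs (embryo in the headers of the files) was hybridised together with RNA of the larva of instar 1. In the second, RNA from day 1 of pupation was hybridised with that of the larva of instar 5. Each pair was run in both dye orientations: the larva took the green dye Cy3 in one and the red dye Cy5 in the other. The labels name 1 sample per pair and do not say whether animals were pooled. They do not state whether the dye orientations used separate RNA preparations either. Spots and dye orientations were therefore taken as technical readings of 1 sample per stage. Stages were not tested against each other, and the number of arrays limits the precision.

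RNAs of this size include the small nucleolar RNAs, which guide chemical modification and processing of ribosomal RNA, and the spliceosomal small nuclear RNAs, which remove introns from messenger RNA precursors. They also include transfer RNAs and the RNA of the signal recognition particle, which brings proteins to the endoplasmic reticulum. Diapause is a programmed arrest of silkworm embryogenesis, and day 1 of pupation lies in the remodelling of larval into adult tissues. None of the 45 names was found in RefSeq's gene table for the assembly ASM3026992v2 (0 of 45). RNA class, sequence and genome position were not given in the sources used here, and each member is therefore called by its number alone. Member numbers ran from 3 to 183, with a median of 102, against a median of 78.5 over all 132 probes.

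The members spanned a wide range of signal at every stage. In egg, the mean signal over 3 spots ran from 167 to 62258 in Cy5 and from 176 to 51116 in Cy3, with medians of 1963 and 1533. In the larva of instar 1 it ran from 433 to 84156 in Cy3 and from 517 to 65626 in Cy5, with medians of 2336 and 1906. Both low ends in egg were Bm-86, and both low ends in this larva were Bm-3. Bm-33 gave the highest signal in these 4 channels. Signals of different probes depend on labelling and hybridisation as well as on RNA amount, so their order is not an order of RNA levels.

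The pupa pair gave lower medians. In pupa the members ran from 165 to 35903 in Cy5, with a median of 1165, and from 393 to 68515 in Cy3, with a median of 1176. In the larva of instar 5 they ran from 261 to 42713 in Cy3, with a median of 1100, and from 289 to 8334 in Cy5, with a median of 998. The larval Cy5 channel thus ended far below the others, and its highest signal over all spots was 9977. The pairs were hybridised on separate arrays, so levels of egg and pupa, or of the larval instars, were not compared.

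**Figure D1:**
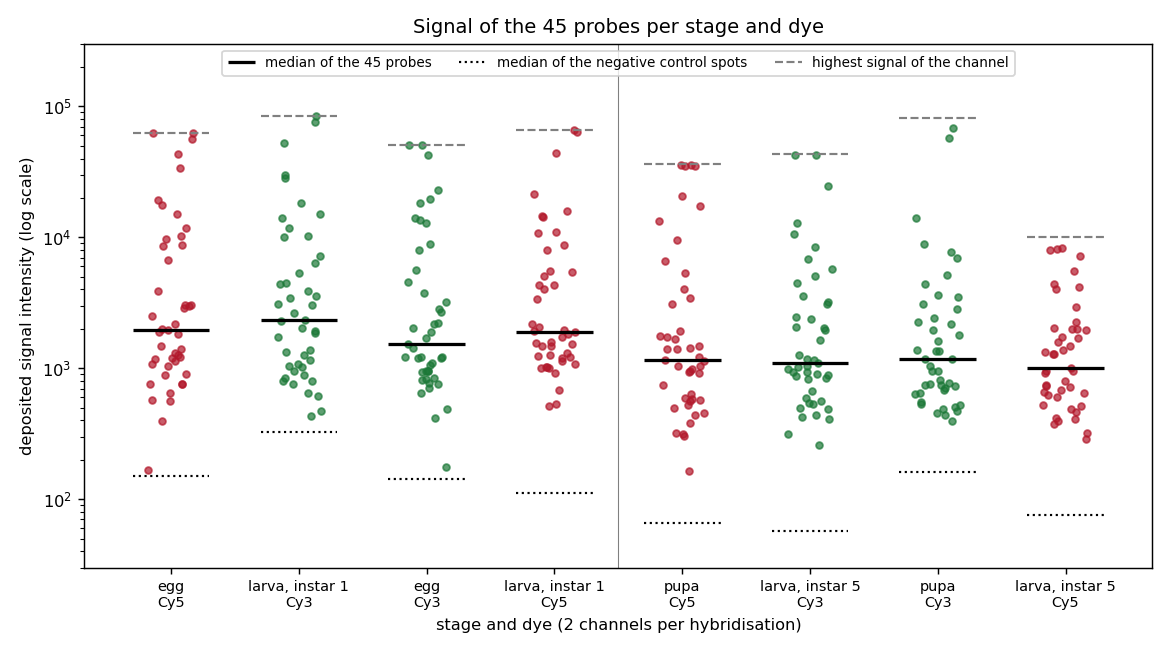
Deposited signal intensity (log scale) of the 45 probes in each stage and dye; each point is the mean of 3 spots, red for Cy5 and green for Cy3, with the median of the members, the median of the negative control spots and the highest signal of the channel as bars. The members' medians lie between 998 and 2336, and the larval Cy5 channel of the pupa pair ends at 9977.

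Every member lay above the median of the 27 negative control spots in all 8 channels. The members' median was 7.12 to 17.0 times that median on the egg arrays and 7.30 to 19.3 times on the pupa arrays. The clearance was smallest in larval Cy3 of the egg pair, where 13 of 45 members were below the highest negative control spot, at 1153. Only Bm-79 and Bm-86 were below the highest control in egg Cy5, and Bm-3, Bm-86 and Bm-129 in egg Cy3. In the 4 channels of the pupa pair and in larval Cy5 of the egg pair, 0 members were. Single spots could lie lower than these means. Egg Cy5 spots of Bm-86 read 149.521 and 149.536, below the control median of 149.555. A pupal Cy5 spot of Bm-109 read 151.7, below the highest control there, 160.5. Blank spots of the pupa pair had a median of 720 in pupal Cy5 and 1772 in larval Cy5, above 14 and 31 of the members. Buffer spots, named ssc, had medians of 7653 and 1617 in these channels, above 37 and 29 of the members. In Cy3 the medians of blank and buffer spots were between 55.2 and 56.3. None of these spots had flag 0 on the pupa arrays, and their part in the pupal ratios was not tested.

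At the upper end, some members had all 3 spots at 97% or more of the highest signal of a channel. On the egg arrays these were Bm-33 in all 4 channels and Bm-101 in both egg channels. On the pupa arrays they were Bm-33, Bm-68 and Bm-101 in pupal Cy5, and Bm-33 and Bm-101 in larval Cy3. Ratios of such spots are limited by the channel. Bm-33 stood at a log2 ratio of -0.40 in egg and -0.15 ± 0.04 (SD over 3 spots) in pupa.

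Signals of a member kept their order between dyes of one stage. Across the 45 members, the log2 signals of the dyes correlated at r = 0.96 (rho = 0.90) in egg, 0.92 (0.88) in the larva of instar 1, 0.85 (0.83) in pupa and 0.85 (0.83) in the larva of instar 5. Between the larval instars in the same dye, r was 0.91 (rho = 0.86) in Cy3 and 0.84 (0.82) in Cy5. Between egg and pupa it was lower, 0.66 (rho = 0.68) in Cy5 and 0.47 (0.54) in Cy3. Bm-86, at 167 and 176 in egg against 35033 and 68515 in pupa, was included. These values were not computed without it. Members are no replicates, and these channels share the probes and the array design, so the values are descriptions.

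The log2 ratio of a member was taken from the red and green signals as stage over larva, averaged over the 3 spots of each dye orientation and then over the orientations. A positive value means that the egg or pupal signal exceeded the larval signal of its pair. Each SD over 3 spots given here, and each value after ±, was taken after averaging the orientations of each spot. It therefore leaves out the gap between orientations. A member was called when this ratio reached 1 in size, which is 2-fold, and all 6 readings of the pair had the same sign. In egg, 2 members were called higher, Bm-151 and Bm-183, where 6.72% of the 119 measured Bm- probes were called higher. In egg, 2 were called lower, Bm-86 and Bm-23, beside 2.52% of measured probes. In pupa, 3 were called higher, Bm-86, Bm-18 and Bm-129, beside 2.61% of 115 measured probes, and 1 lower, Bm-23, beside 2.61%.

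Most members stayed near 0, as did most measured probes. In egg, 41 members were not called, beside 108 of the 119 measured probes. Within 0.5 of 0 on the log2 scale were 30 members, beside 87 of the 119. The median of the 45 egg ratios was -0.07, with the middle 50% between -0.40 and 0.27, beside a median of 0.01 over all 119 measured probes. In pupa, 41 were not called and 33 were within 0.5 of 0, beside 109 and 89 of the 115 measured probes. The median was 0.07, with the middle 50% between -0.20 and 0.43, beside -0.02 over all 115. A member that was not called is not shown to be equal between stages. With each array centred on the control messenger RNA spots in place of the deposited scale, the members' medians shifted to -0.59 in egg and -0.20 in pupa. This left 0 higher against 9 lower calls for egg, and 2 against 2 for pupa. The centring shifts every probe of a hybridisation by the same amount. Calls over all measured probes were not counted with it, so these counts are not particular to the members.

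**Figure D2:**
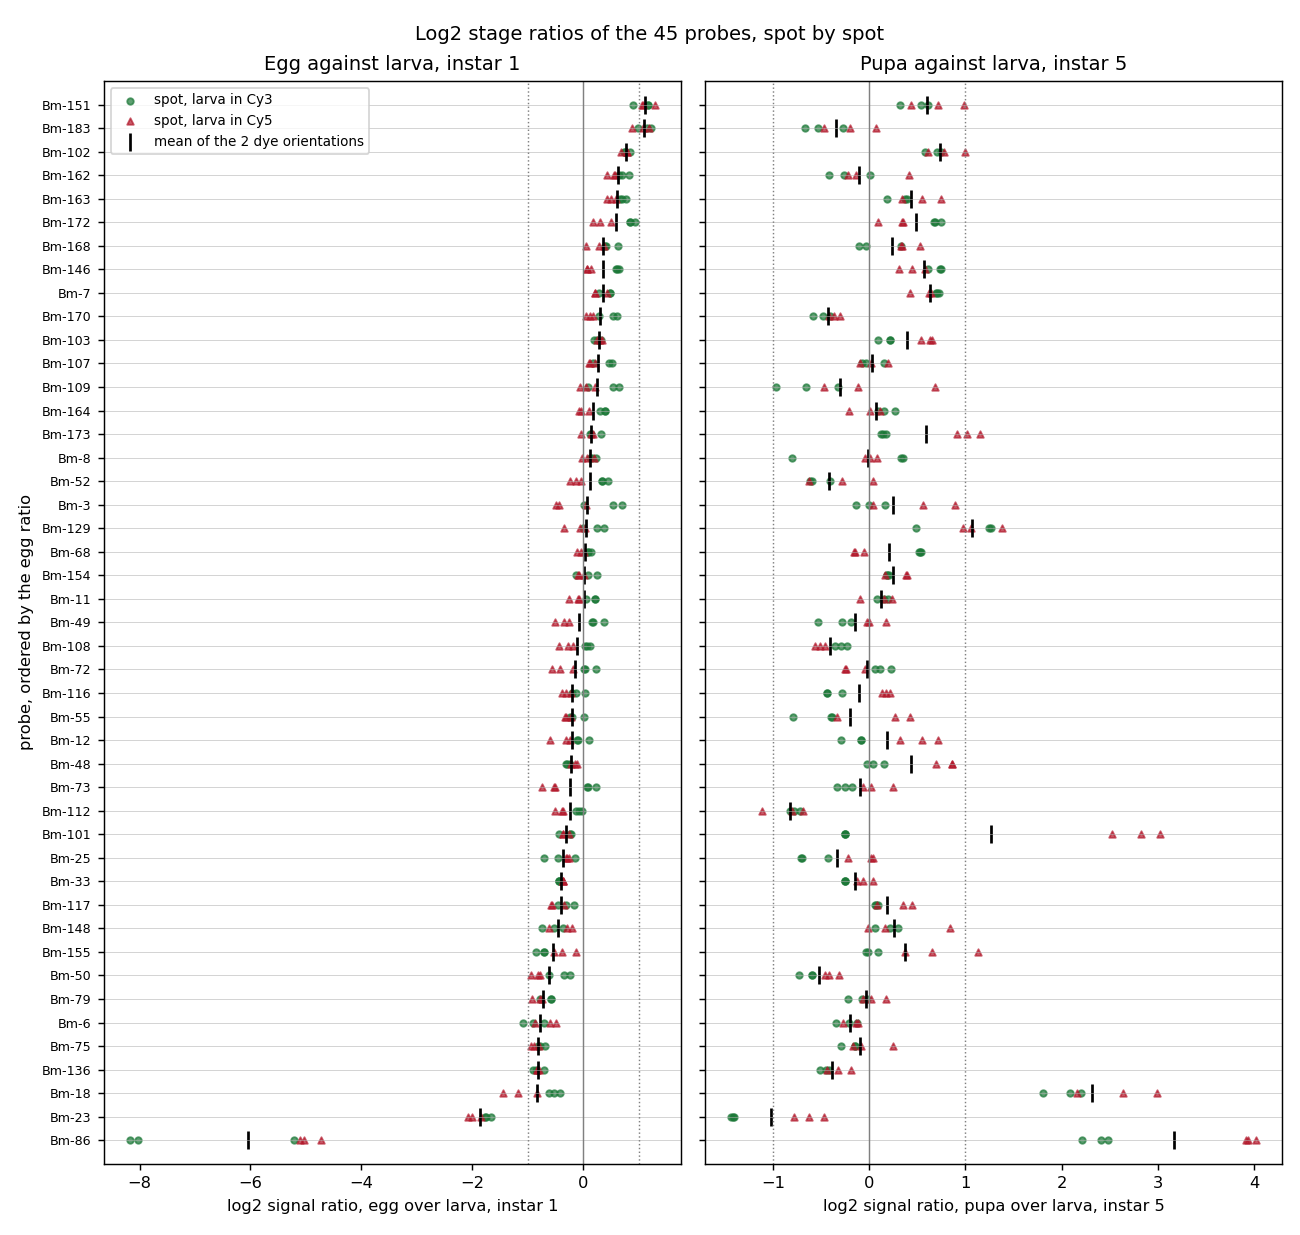
Log2 signal ratios of stage over larva (horizontal axes) for the 45 probes (rows, ordered by the egg ratio), with circles for single spots with the larva in Cy3, triangles for single spots with the larva in Cy5, black ticks for the mean, and dotted lines at 2-fold. Most rows lie within the dotted lines in both pairs, and Bm-86 lies at -6.04 in egg and 3.16 in pupa.

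Bm-86 had the most extreme ratio of all members in both pairs, with opposite signs. With the larva in Cy3, its egg spots read 149.5, 149.5 and 203, and the larval spots 39184, 43079 and 7518. In the other orientation, the egg spots read 165, 191 and 171, and the larval spots 5380, 5063 and 5889. Every egg spot was thus far below every larval spot. The lowest signal of the whole egg Cy5 channel was 149.5, so that 2 of its 3 spots there stood at the bottom of the channel although their flags were 0.

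The egg ratio of Bm-86 was -6.04 ± 0.77 (SD over 3 spots), from -7.14 in the larval Cy3 orientation and -4.95 in the other. Among its larval Cy3 spots, the third was far dimmer than the others, and it gave -5.21 in that orientation against -8.03 and -8.17. With a floor at the 95th percentile of each channel's negative control spots, the ratio over both orientations was -5.21. This floor was 149.6 in egg Cy5, next to that channel's lowest signal of 149.5, and 555 in egg Cy3. It therefore left the -7.14 nearly unchanged and acted on the other orientation. The sign was shared by all 6 readings, and the size is uncertain because the egg signal was near the bottom of its channels.

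In the pupa pair the same probe was bright at both stages. Pupal spots of Bm-86 read 35021, 34978 and 35101 in Cy5 and 81963, 55559 and 68024 in Cy3. Larval spots read 6615, 6283 and 7580 in Cy3 and 5045, 3673 and 4427 in Cy5. The groups of spots did not overlap in either orientation. The pupal Cy5 spots lay together near the channel's highest signal of 36098, and the pupal Cy3 spot of 81963 was the highest of its channel. The log2 ratio was 3.16 ± 0.07 (SD over 3 spots), from 2.36 and 3.96 in the same order of orientations, and it was 2.57 with a refitted loess.

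Bm-23 was the only member called in the same direction in both pairs, with lower signal in egg and pupa than in the larva. Its egg spots read 1214, 1057 and 1256 in Cy5 against 4133, 3569 and 3993 in larval Cy3. With the larva in Cy5 they read 2157, 1878 and 2039 against 7742, 7559 and 8603. All 6 egg readings were below all 6 larval readings, and the log2 ratio was -1.85 ± 0.04 (SD over 3 spots), which is 3.61-fold lower.

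In pupa, Bm-23 stood close to the threshold. Its spots read 1792, 1611 and 1653 in pupal Cy5 against 4783, 4352 and 4365 in larval Cy3. With the larva in Cy5 they read 4552, 3156 and 3232 against 6298, 4866 and 5547. The spots did not overlap within an orientation, but the gap was narrower in the second. The log2 ratio was -1.02 ± 0.07 (SD over 3 spots), from -1.42 and -0.62. Without the third spot it was -0.99 and no longer called.

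Bm-18 was higher in pupa and, without reaching the threshold, had lower signal in egg. Its pupal spots read 19033, 12209 and 9085 in Cy5 against larval 4143, 2876 and 2595 in Cy3. In the other orientation, pupa read 13983, 7506 and 5043 against larval 1765, 1210 and 1125. The pupal spots were all above the larval spots. The ratio of Bm-18 was 2.31 ± 0.31 (SD over 3 spots), or 4.97-fold, from 2.03 and 2.59.

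In egg, Bm-18 read 627, 527 and 523 in Cy5 against larval 900, 806 and 701 in Cy3. With the dyes exchanged, egg read 747, 731 and 852 against larval 2041, 1640 and 1521. Egg was below larva in every spot. The ratio was -0.83 ± 0.18 (SD over 3 spots), with -0.52 where the larva was in Cy3 and -1.15 where it was in Cy5, a gap wider than the spread between its spots. With the larva in Cy5 alone, Bm-18 was called lower in egg.

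Bm-129 was among the members with the lowest signals and was called higher in pupa. Its pupal spots read 671, 550 and 1000.3 in Cy5 against larval 282, 229 and 716 in Cy3. With the dyes exchanged, pupa read 893, 704 and 863 against larval 453, 338 and 331. In Cy3 the third larval spot was above the lower pupal spots, so the channels overlapped in the first orientation and not in the second. The ratio was 1.07 ± 0.12 (SD over 3 spots). From the larval Cy3 orientation alone it was 0.999, and from the log2 of mean signals 0.994, and it was not called in either. With centring on the control messenger RNA spots it was 0.80. In egg the same probe stood at 0.05 ± 0.11, with readings of both signs.

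Bm-151 and Bm-183 were called higher in egg. Bm-151 read 3730, 3842 and 4098 in egg Cy5 against larval 1657, 1703 and 2188 in Cy3, and 2664, 2769 and 2663 in egg Cy3 against larval 1264, 1127 and 1280 in Cy5. Egg spots were above larval spots throughout. The ratio was 1.11 ± 0.13 (SD over 3 spots), and the orientations, 1.08 and 1.14, differed by less than the spots did. In pupa, Bm-151 had all 6 readings above 0 at 0.60 ± 0.10.

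For Bm-183, egg read 5910, 6203 and 7863 in Cy5 against larval 2520, 2777 and 3942 in Cy3. With the dyes exchanged, egg read 3473, 3523 and 4222 against larval 1517, 1673 and 2280. The channels did not overlap. The ratio was 1.09 ± 0.14 (SD over 3 spots), from 1.13 and 1.05. In pupa it was -0.35 ± 0.14, with 5 of 6 readings below 0. With centring on the control messenger RNA spots, Bm-151 was at 0.59 and Bm-183 at 0.57 in egg, and neither was called.

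**Figure D3:**
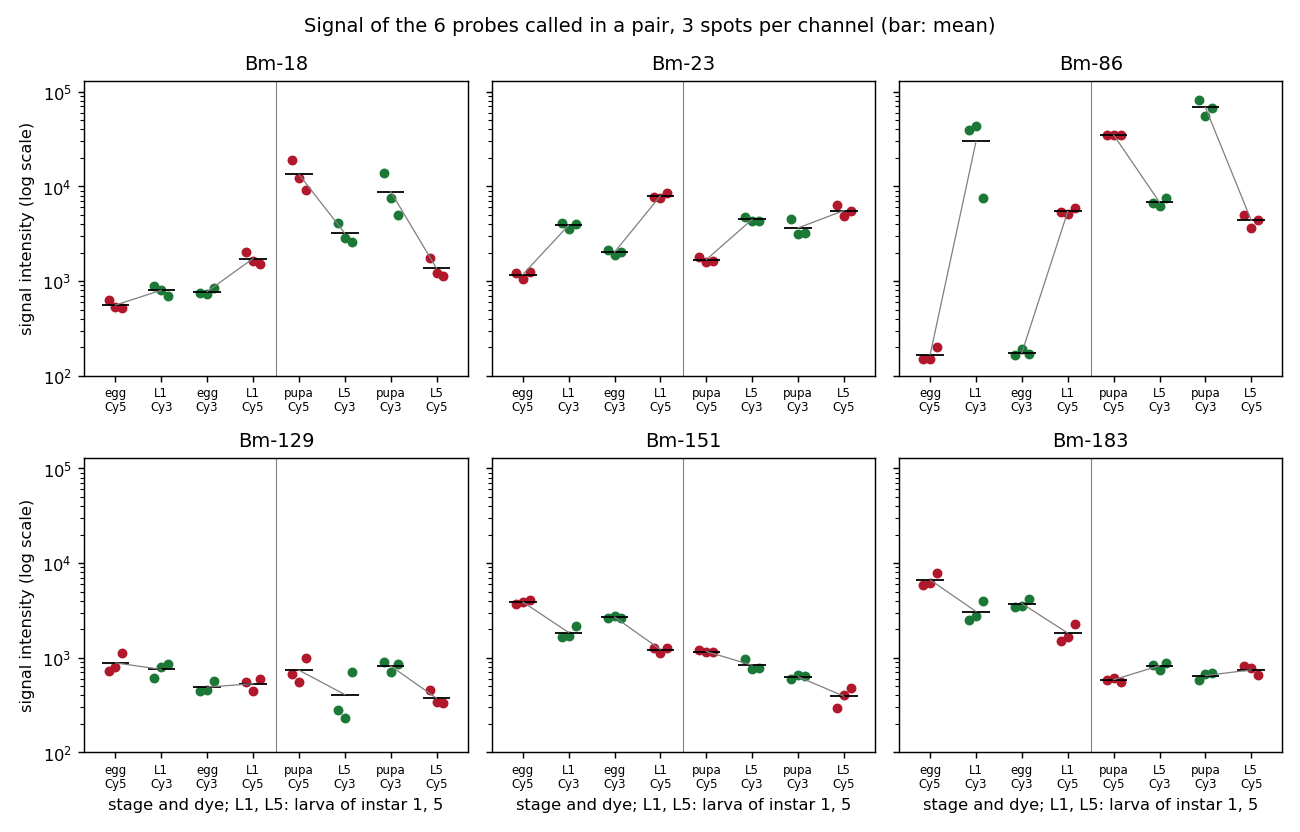
Signal intensity (log scale) of the 6 probes called in a pair, by stage and dye, with 3 spots per channel, a bar for their mean and a line joining the channels of one hybridisation. Bm-86 joins egg signals of 167 and 176 to larval signals of 29927 and 5444, and Bm-183 has larger signals in egg than in larva and the reverse, by a smaller ratio, in pupa.

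Readings of one sign were common, called members included. In egg, 12 members (26.7%) had all 6 readings above 0, beside 28.6% of all measured probes, and 16 (35.6%) had all below 0, beside 27.7%. These 16 include Bm-33 and Bm-101, whose egg spots stood at the top of their channels, so that their ratios are limited by it. In pupa, 13 (28.9%) had all 6 above 0, beside 21.7%, and 7 (15.6%) had all below 0, beside 25.2%. Probes outside the members often had fewer than 6 usable readings, which makes one sign easier to reach. Among the members, 7 had all 12 readings above 0: Bm-7, Bm-102, Bm-103, Bm-146, Bm-151, Bm-163 and Bm-172. Another 5 had all 12 below 0, and these were Bm-6, Bm-23, Bm-50, Bm-112 and Bm-136.

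Of the members above 0 in both pairs, Bm-102 had ratios of nearly equal size, 0.77 ± 0.05 in egg and 0.73 ± 0.05 in pupa. Its orientations were also close, at 0.78 and 0.76 in egg and at 0.68 and 0.79 in pupa. Its egg spots read 13128, 14668 and 24921 in Cy5 against larval 7862, 8717 and 13806 in Cy3, so the third spot was brighter in both channels while the ratio was steady. Bm-163 stood at 0.61 ± 0.06 and 0.43 ± 0.15, Bm-172 at 0.60 ± 0.08 and 0.48 ± 0.09, and Bm-7 at 0.35 ± 0.10 and 0.63 ± 0.06. Bm-146 was at 0.36 ± 0.04 and 0.57 ± 0.10, and Bm-103 at 0.28 ± 0.05 and 0.39 ± 0.04. The orientations could lie farther apart than these SDs. In egg they gave 0.62 and 0.10 for Bm-146 and 0.88 and 0.32 for Bm-172, but 0.42 and 0.28 for Bm-7. In pupa they gave 0.17 and 0.61 for Bm-103. With the control messenger RNA spots as the centre, Bm-7, Bm-103 and Bm-146 turned to -0.17, -0.24 and -0.17 in egg, while Bm-102, Bm-151, Bm-163 and Bm-172 were still above 0 in both pairs.

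Of the members below 0 in both pairs, Bm-136 was at -0.82 ± 0.06 in egg with equal orientations of -0.82, and at -0.39 ± 0.08 in pupa. Bm-50 was at -0.62 ± 0.14 and -0.52 ± 0.06. Bm-112 was at -0.24 ± 0.05 in egg and at -0.82 ± 0.13 in pupa, the lowest pupal ratio after Bm-23. Bm-6 was at -0.77 ± 0.19 and -0.20 ± 0.09. Bm-75 and Bm-79 had egg ratios of similar size, -0.82 ± 0.02 and -0.73 ± 0.04, but pupal ratios of -0.10 and -0.04 with readings of both signs. Bm-52 was among the 5 lowest pupal ratios at -0.42 ± 0.22, with 5 of 6 readings below 0. In egg it was at 0.12, from 0.38 and -0.13 in the orientations.

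In 4 members the pairs lay on opposite sides of 0 in all 12 readings. Such counts over both pairs, here and above, were not set against a share over all measured probes. Besides Bm-86 and Bm-18, Bm-117 stood at -0.40 ± 0.14 in egg and 0.18 ± 0.08 in pupa. Bm-170 stood at 0.30 ± 0.10 in egg and -0.43 ± 0.06 in pupa. With centring on the controls, Bm-117 turned to -0.09 in pupa and Bm-170 to -0.23 in egg, so these opposite signs depended on the scale. The differences between the pairs were not tested. In 13 members, among them Bm-8, Bm-11, Bm-72 and Bm-164, both pairs held readings of both signs.

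Across the 45 members, the egg and pupa ratios correlated at r = -0.45 and rho = 0.21. The sign of r rested on Bm-86, since the other 44 members gave r = 0.20 and rho = 0.30. Leaving out Bm-23 as well, the next farthest from the median, gave r = 0.06 and rho = 0.25. These are descriptions across probes that share arrays within each pair, while the pairs share no RNA preparation.

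**Figure D4:**
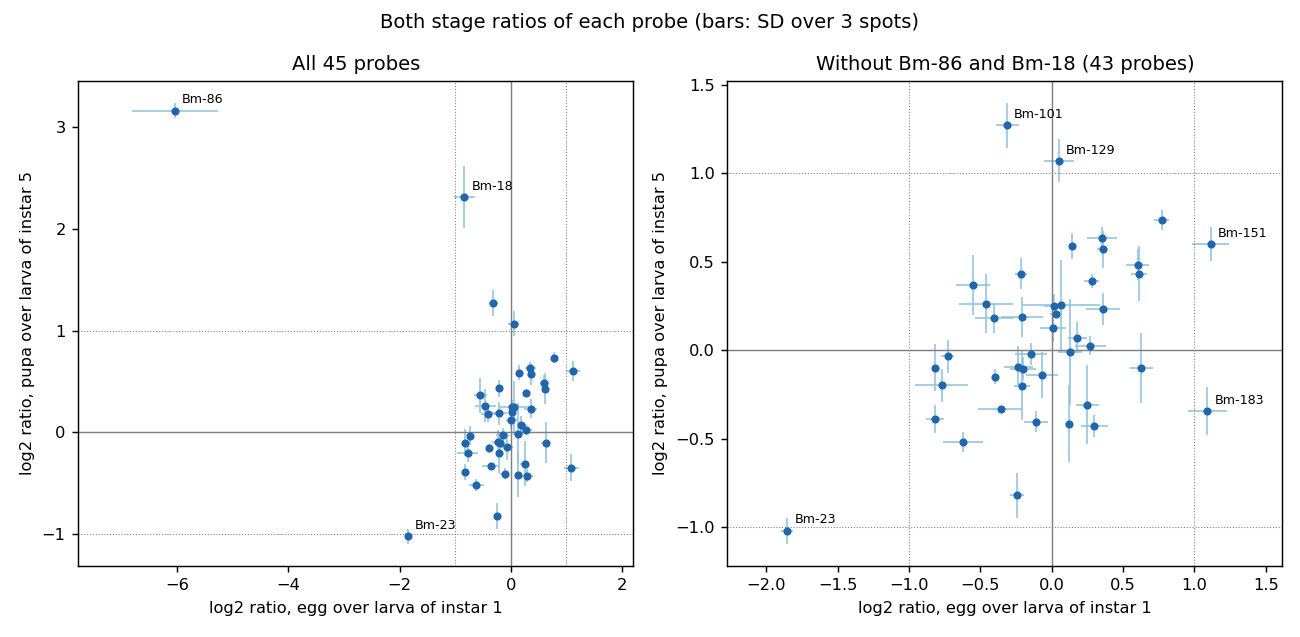
Log2 ratio of egg over the larva of instar 1 (horizontal) against log2 ratio of pupa over the larva of instar 5 (vertical), each point 1 probe with bars of 1 SD over 3 spots and dotted lines at 2-fold; the right panel leaves out Bm-86 and Bm-18. Bm-86 stands alone at -6.04 and 3.16, and Bm-23 is past the dotted lines in both pairs on the lower side.

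Taken as a median over the members, the technical spread was small against the called ratios and of the same order as many others. Among called members the gap between orientations varied. In egg it was 0.06 for Bm-151, 0.08 for Bm-183, 0.25 for Bm-23 and 2.19 for Bm-86. In pupa it was 0.14 for Bm-129, 0.56 for Bm-18, 0.79 for Bm-23 and 1.60 for Bm-86. The SD over 3 spots had a median of 0.08 in egg and 0.09 in pupa. Over the other probes usable in both orientations, the SD over usable spots had a median of 0.14 (51 probes) and 0.18 (42 probes). Their flagged readings were left out, so a spot could enter from a single orientation or drop out. Their SD can thus hold part of the gap between orientations and is not the same measure. Dividing the gap between orientations by 2 gave a median of 0.12 in egg and 0.13 in pupa for the members, and of 0.17 and 0.24 for those other probes. The flags that chose the members come from the same spots, so this contrast was not tested.

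The orientations correlated across members at r = 0.96 (rho = 0.88) in egg and 0.76 (0.69) in pupa. Without Bm-86 these were 0.90 (0.87) and 0.64 (0.67). Without Bm-86 and Bm-101 the pupal value was 0.82 (0.72). In egg, the ratio with the larva in Cy3 was the higher one in 36 of 45 members, with medians of 0.11 and -0.28 for the orientations. Over all measured Bm- probes usable in both orientations, members included, it was the higher one in 82 of 96. In pupa, it was the higher one in 9 of 45 members, with medians of 0.01 and 0.10, beside 13 of 87 such probes. The shift was thus not particular to the members. The mean over orientations cancels such a shift where it has equal size in both.

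The widest gaps between orientations in pupa belonged to Bm-101 at 3.04, Bm-86 at 1.60 and Bm-173 at 0.88. Bm-101 read 35611, 35868 and 36098 in pupal Cy5 against larval 42463, 42691 and 42946 in Cy3, which were at the top of both channels. With the dyes exchanged, pupa read 71544, 42045 and 58928 against larval 8789, 7330 and 8322. The orientations gave ratios of -0.25 and 2.79. The mean of 1.27 was not called, because the signs differed.

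For Bm-173 the orientations gave 0.15 and 1.03, and it was called higher with the larva in Cy5 alone. In egg the widest gaps were 2.19 for Bm-86, 0.72 for Bm-73 and 0.72 for Bm-3. Bm-3 had the lowest mean log2 signal of the members, and its SD over spots, 0.27 in egg and 0.26 in pupa, was as large as its ratios of 0.06 and 0.25. The other members of lowest signal, Bm-25, Bm-55 and Bm-109, had ratios of -0.36, -0.21 and 0.25 in egg and -0.33, -0.20 and -0.31 in pupa. The egg ratio of Bm-109 turned to -0.25 with the floor that was set for Bm-86 above and to -0.28 with centring on the controls, and that of Bm-3 to -0.29 and -0.46. Of the members of highest signal, Bm-68 stood at 0.03 ± 0.04 in egg. In pupa it had 0.53 and -0.12 in the orientations, with its pupal Cy5 spots at the top of the channel.

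**Figure D5:**
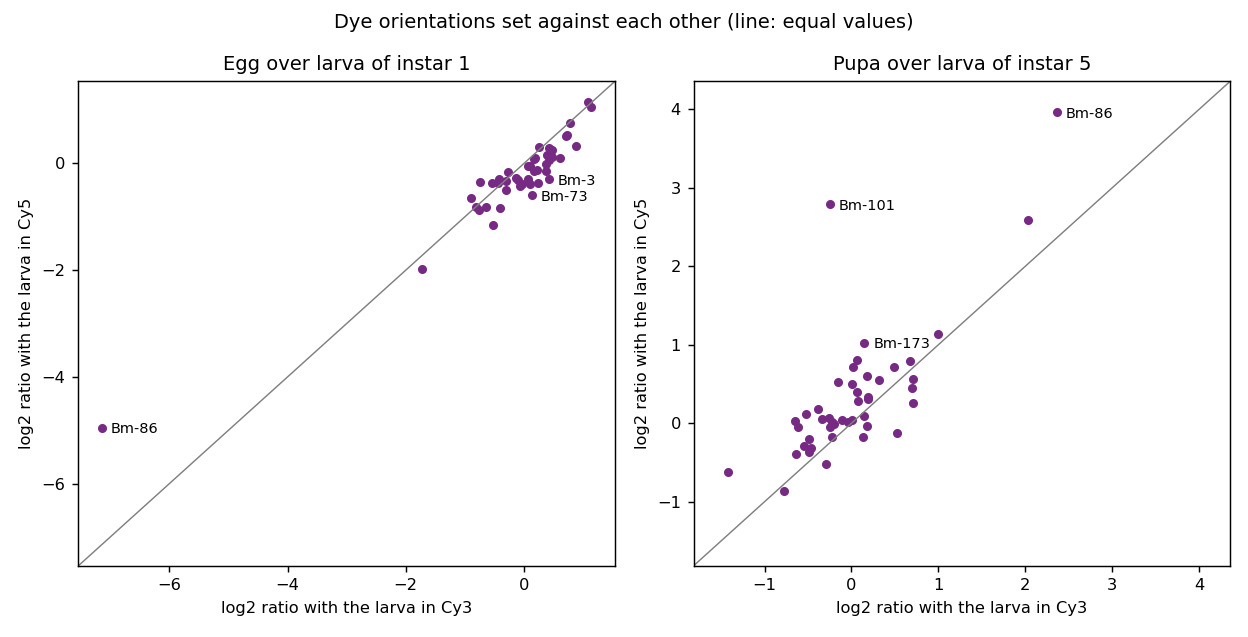
Log2 ratio with the larva in Cy3 (horizontal) against log2 ratio with the larva in Cy5 (vertical) for the 45 probes, egg on the left and pupa on the right, with a line at equal values and the 3 widest gaps of each pair named. Most pupal points lie above the line and most egg points below it, and Bm-101 lies at -0.25 and 2.79.

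In the authors' deposited table, each spot also has a p-value, and the test behind it is not described here. All 3 spots of 14 members in egg and of 8 members in pupa had a value below 0.05 in the authors' deposited table, unadjusted. Over all measured probes, every spot with a value was below 0.05 for 21.8% of 119 in egg and 9.57% of 115 in pupa, again from the authors' deposited table. Besides the members called in the same pair, those in egg were Bm-6, Bm-18, Bm-50, Bm-75, Bm-79, Bm-102, Bm-136, Bm-162, Bm-163 and Bm-172. Those in pupa were Bm-7, Bm-101, Bm-102 and Bm-112. Bm-162 stood at 0.63 ± 0.08 in egg and at -0.10 ± 0.20 in pupa. With 1 labelled sample per stage, these p-values are not a test between stages. In such whole preparations, fewer cells that make an RNA and less of it per cell cannot be told apart.

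The 12 probes that missed membership by a single flag were Bm-1, Bm-22, Bm-26, Bm-29, Bm-67, Bm-78, Bm-88, Bm-93, Bm-100, Bm-135, Bm-160 and Bm-171. In 8 of them the flagged reading was on the egg array with the larva in Cy3, and in 4 on the pupa array with the larva in Cy5. The flagged spot was dimmer than the mean of the usable spots in both channels for 11 of the 12. For Bm-135 it read 475 in egg and 512 in larva, below the 1081 and 844 of its usable spots. The exception was Bm-160, where it read 397 and 370, above the 325 and 326 of its usable spots. Bm-160 had an egg ratio of 1.61 ± 0.08 and was the only one of the 12 past the threshold, and Bm-100 was just short of it at 0.99 ± 0.11. Just inside, members as dim as Bm-109, with pupal Cy5 at 165 and larval Cy3 at 261, had flag 0 in all spots.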

How the data were processed

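Members and probe lists were chosen with earlier results of these data known. Per the file headers, the deposited signals are red (Cy5) and green (Cy3) intensity values. Since they carry decimals and their log2 ratios centre near 0, background correction and normalization by the authors were inferred and not repeated. The sources used here do not name a scanner or tool. The authors also deposited a flag score per spot (0 or -50), a log2 ratio and a p-value per spot, and a value table of log2 ratios, which matched the member ratios computed here from the signals. Other settings covered dye orientation, spot summary, threshold, centring, a lowess refit with a span of 0.4 (statsmodels 0.14.6), dim signals, the authors' table and leaving out spots. A floor at the 95th percentile of the negative control signals, adding the 12 probes with 1 flag and leaving out Bm-86 were chosen after seeing the data. Named members were those called, the 5 with the highest and lowest signal and ratios, the 3 with the widest orientation gaps, those with pairs on opposite sides of 0, and the 12 probes missing 1 flag; others named in the text were chosen after their values were seen. The calculation was tested on simulated data, where recovery of every changed probe was required only for changes larger than 2-fold. Calls near 2-fold were not covered by that requirement, and the simulation held no channel floor or ceiling. Python 3.11.15 was used.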

Additional observations from a re-analysis of the deposited data

Results flagged for a closer look

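Every reading of the egg pair and of the pupa pair lay on opposite sides of 0 for 4 members, and the difference was not tested. Bm-86 stood at -6.04 against the larva of instar 1 and at 3.16 against that of instar 5. Bm-18 was at -0.83 and 2.31, Bm-117 at -0.40 and 0.18, and Bm-170 at 0.30 and -0.43. Outside the Bm- probes, the 12 control_ph spots gave log2 ratios of 0.58 for egg and 0.30 for pupa.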

How the results depend on the processing

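The calls of Bm-86 in both pairs, of Bm-23 in egg and of Bm-18 in pupa held under every alternative that kept the probe. Higher calls in egg (2) were 6 at 1.5-fold and 0 with centring on the control messenger RNA spots. Lower calls in egg (2) were 8 at 1.5-fold, 9 with that centring and 1 without Bm-86. Higher calls in pupa (3) were 7 at 1.5-fold and 5 when only the orientation with larval Cy5 was used. The single lower call in pupa became 0 in that orientation, 2 at 1.5-fold, 2 with centring on the controls, and between 0 and 1 with 1 spot left out. Counts under these other settings were not set against a share over all measured probes. The median egg ratio (-0.07) was 0.11 with the larva in Cy3 alone, -0.28 with the larva in Cy5 alone and -0.59 with centring on the controls, and the median pupal ratio (0.07) was -0.20 with that centring. The correlation of the pairs (-0.45) was -0.35 with the larva in Cy3 alone and 0.20 without Bm-86. No called ratio changed sign. The remaining 92 settings of these results were within their spread, or within 1.5 times for counts. The centring rested mainly on the control_ph spots, and the cause of these shifts was not tested. No paired analysis was possible because each pair has 1 sample. Ratios of members at the bottom or top of a channel are limited by it.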
